A study of Mus musculus with 8 samples.

Results

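The 29 genes described here build cholesterol from acetyl-CoA, sense it, or move it through the cell. They were picked by gene name from the 54532 genes of the deposited expression table, and all 29 were among the 16645 that averaged 0.1 FPKM or more and were tested. Of these, 19 encode synthesis enzymes, 4 encode the sterol sensing machinery and 6 act in sterol movement, storage or uptake. FPKM are fragment counts divided by gene length and by library size, so levels of different genes are compared here per length.

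The RNA came from livers of 8 mice, 4 of them METTL3-HKD and 4 METTL3-Flox, all exposed to 1 h of ischemia and then 6 h of reperfusion (I/R). METTL3 is the catalytic subunit of the enzyme that writes N6-methyladenosine (m6A) onto mRNA. METTL3-HKD mice carried the genotype METTL3 flox/-; Alb-iCre, in which the albumin promoter drives a Cre recombinase in hepatocytes and the floxed stretch is exon 4. The study describes them as heterozygous animals with lowered rather than absent METTL3. Whether the minus sign marks a wild-type or a deleted allele is not stated. METTL3-Flox mice were littermates with the genotype METTL3 flox/flox and no Cre, so by these genotypes the groups differ both in Cre and in an allele of METTL3. The model clamps the left and middle branches of the portal vein, so part of the liver stays perfused. Age and sex of the sequenced animals are not given in the labels, and no liver without I/R was analysed here, so each difference below is between injured livers of both genotypes.

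Hepatocytes are the main site of cholesterol synthesis in the body. When sterol in the endoplasmic reticulum runs low, SCAP escorts the transcription factor SREBP2 to the Golgi, where it is cut, and the freed part switches on the genes of nearly every synthesis step together. When sterol is plentiful, INSIG1 and INSIG2 hold SCAP back, and liver X receptors, which oxysterols activate, turn on genes of sterol efflux and the ubiquitin ligase Mylip.

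Promoters of 22 of the 29 genes were found by symbol in the RefSeq table of GRCm38.p6, as 28 stretches of 300 bases that run from 250 bases before to 50 bases after a start site. SREBP2 works on such promoters together with the CCAAT-binding factor NF-Y and with Sp1, which binds GC boxes. The letters CCAAT, or ATTGG on the other strand, stood in 20 of the 28 stretches (71.4%), against 37.4% of all 32851 promoters. The GC box GGGCGG, or CCGCCC, stood in 23 of the 28 (82.1%), against 35.7% of all promoters. The sterol regulatory element, searched as TCACNCCAC or GTGGNGTGA, was matched in 1 of the 28, that of Hmgcs1, and in 1.24% of all promoters. The comparison was with all promoters, not only those of genes expressed in these livers, and some genes count more than once among the 28. The shares are therefore not a measure of what sets sterol genes apart. A match is a description of the letters, and a missing match says nothing of whether a factor binds there.

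Given next, in 5′ to 3′ direction, are the 180 bases before the start site of 4 synthesis enzymes that had among the larger estimated differences or hold the sterol regulatory element, of the only gene among the 29 that rose, of the gene with the smallest adjusted p, and of Ggps1, the synthesis enzyme whose level differed least. Insig2 has 3 RefSeq start sites, and the one printed is the most upstream, at the 5′ end of the annotated gene, while the stretches of the other 2 hold a GC box and no CCAAT. Capitals mark CCAAT or ATTGG and, in Hmgcs1, the sterol regulatory element.
Hmgcs1 (chr13:119690171-119690350, plus strand): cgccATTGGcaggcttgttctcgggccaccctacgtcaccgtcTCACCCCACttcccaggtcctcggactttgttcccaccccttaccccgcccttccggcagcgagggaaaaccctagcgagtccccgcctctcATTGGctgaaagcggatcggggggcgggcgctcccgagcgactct
Mvk (chr5:114444089-114444268, plus strand): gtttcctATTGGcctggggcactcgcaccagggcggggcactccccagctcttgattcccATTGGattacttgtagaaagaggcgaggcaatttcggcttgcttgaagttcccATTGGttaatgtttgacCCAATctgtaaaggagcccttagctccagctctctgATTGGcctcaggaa
Mvd (chr8:122443423-122443602, minus strand): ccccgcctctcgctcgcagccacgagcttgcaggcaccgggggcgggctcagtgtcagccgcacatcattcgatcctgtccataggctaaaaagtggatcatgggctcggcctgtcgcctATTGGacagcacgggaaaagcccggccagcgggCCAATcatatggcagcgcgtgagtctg
Nsdhl (chrX:72918341-72918520, plus strand): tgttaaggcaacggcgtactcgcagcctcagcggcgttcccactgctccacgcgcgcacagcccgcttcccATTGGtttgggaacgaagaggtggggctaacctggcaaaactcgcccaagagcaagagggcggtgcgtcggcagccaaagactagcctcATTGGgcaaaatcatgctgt
Insig2 (chr1:121332590-121332769, minus strand): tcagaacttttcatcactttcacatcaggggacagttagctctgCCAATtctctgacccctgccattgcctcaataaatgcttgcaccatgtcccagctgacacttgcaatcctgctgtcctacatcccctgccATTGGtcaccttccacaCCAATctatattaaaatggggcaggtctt
Mylip (chr13:45389562-45389741, plus strand): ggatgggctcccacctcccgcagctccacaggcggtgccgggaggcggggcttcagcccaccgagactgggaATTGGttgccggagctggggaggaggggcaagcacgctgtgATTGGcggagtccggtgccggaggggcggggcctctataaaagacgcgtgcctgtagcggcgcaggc
Ggps1 (chr13:14063489-14063668, minus strand): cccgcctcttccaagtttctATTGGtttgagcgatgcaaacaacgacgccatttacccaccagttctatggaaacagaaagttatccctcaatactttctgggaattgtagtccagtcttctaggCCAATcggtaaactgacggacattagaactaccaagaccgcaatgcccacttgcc
Mvk held 5 CCAAT matches in these 180 bases, more than the other 6 genes printed. Ggps1 held 2, the same number as Hmgcs1, Mvd, Nsdhl and Mylip. In Hmgcs1 the sterol regulatory element begins at position -137 from the start site, between CCAAT matches at -176 and -45.

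**Figure D1:**
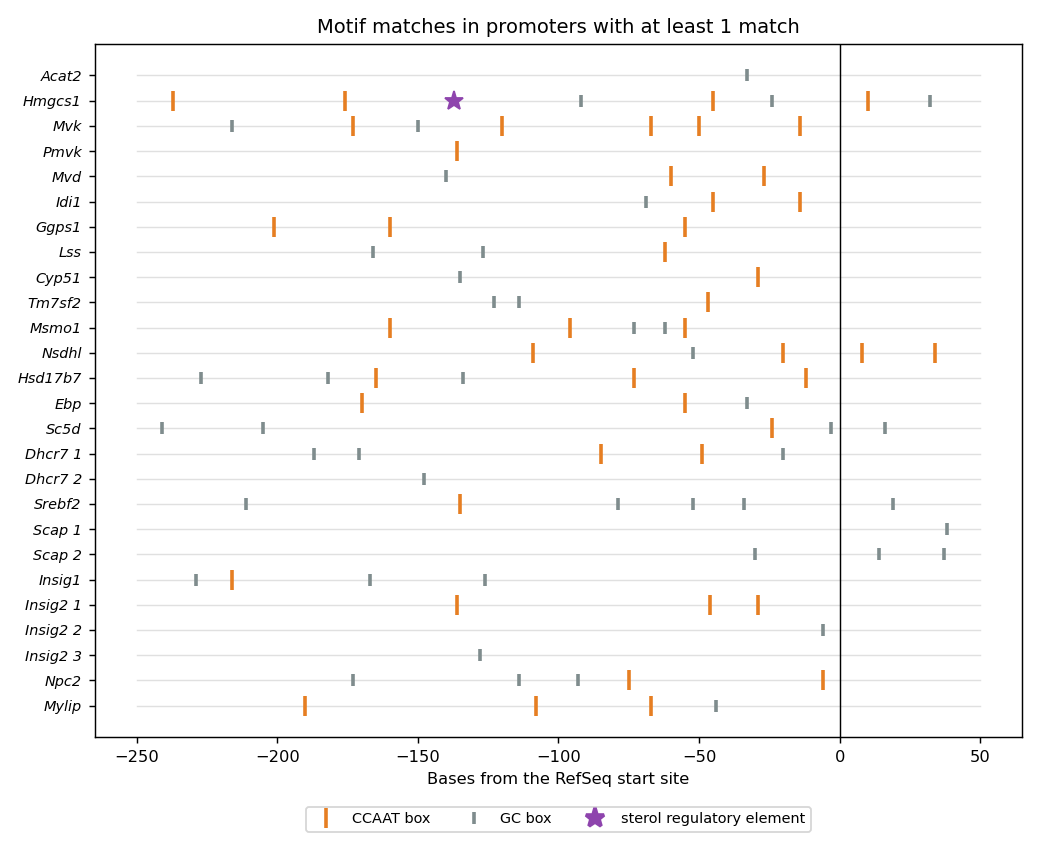
Positions of motif matches in the promoters of the cholesterol genes, in bases from the RefSeq start site on the x axis, with 1 row per promoter and numbered rows where a gene has more than 1. Orange ticks are CCAAT boxes, grey ticks GC boxes and the purple star the sterol regulatory element, which appears in the Hmgcs1 row alone; 26 of the 28 promoters hold a match and are drawn.

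The estimated log2 fold change of METTL3-HKD over METTL3-Flox livers lay below 0 for all 19 synthesis enzymes, with Ggps1 at only -0.0024. The METTL3-HKD mean of Ggps1 was 101.9% of the METTL3-Flox mean, and its estimate was 0.0042 with a pseudocount of 1 FPKM. Ggps1 and Hsd17b7 turned to 0.20 and 0.13 on the log2 scale once reads on genes set the scaling of the libraries. The steps from acetyl-CoA to squalene were at 42.4% to 63.3% of the METTL3-Flox mean, apart from Ggps1. With limma on log2(FPKM + 0.1) and Benjamini-Hochberg adjustment over all 16645 genes, 4 of the 29 genes fell (adjusted p under 0.05), namely Acat2, Mvk, Fdft1 and Mylip, and 1 rose, Insig2. Over all genes tested, 6.63% were called lower and 9.05% higher. Mvk and Fdft1 also passed a log2 fold change of -1, which 1.52% of all genes did together with the adjusted p, while Insig2 stayed under 1, which 4.7% of all genes passed. At an unadjusted p under 0.05, 19 of the 29 were lower, against 15.1% of all genes, and 1 was higher, against 16.7%. Estimates were below 0 for 26 of the 29, against 50.3% of all genes, and below -0.5 for 19 of the 29, against 14% of all genes. The median log2 fold change was -0.68 over the 29 genes, -0.82 over the synthesis enzymes and -0.30 over the other 10, beside -0.00 over all genes tested. The 29 genes were chosen with earlier results of these data known, so these shares and medians describe the list and do not test it.

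The count of genes called lower depended on single livers. It was 1 without METTL3-HKD liver 1, METTL3-Flox liver 2 or METTL3-Flox liver 3, 2 without METTL3-HKD liver 2 or METTL3-Flox liver 1, and 9 without METTL3-HKD liver 4. In the last case Pmvk, Mvd, Cyp51, Insig1 and Soat2 joined the 4. Mylip was called lower each time. The deposited values had been scaled between libraries, and scaling each library to its reads on genes instead moved the median of all genes to 0.20 and left 1 of the 29 higher and 2 lower (Mvk and Mylip), with 2309 genes higher and 374 lower overall in place of 1506 and 1104.

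The first 6 enzymes turn acetyl-CoA into mevalonate and then into the isoprenoid unit. Of the 6, 2 fell, against 6.63% of all genes. Acat2, the cytosolic thiolase that joins 2 acetyl-CoA, was at 16.8, 12.6, 15.3 and 21.8 FPKM in METTL3-HKD livers, numbered 1 to 4 here and in all such series, and at 26.0, 30.02, 26.2 and 22.8 FPKM in METTL3-Flox livers. Every METTL3-HKD liver was below every METTL3-Flox liver, which held for 5 of the 29 genes and for 9.95% of all genes. The log2 fold change of Acat2 was -0.68 (SE 0.162, limma, adjusted p = 0.0264). Its transcript shares 97.7% identity over 1477 bases with the neighbouring Acat3, which was at 50.3 FPKM on average and whose own estimate was -0.35 (limma, adjusted p = 0.226). The Acat2 transcript also shares 445 bases at 98.65% identity with Tcp1, at 24.2 FPKM. How reads were split among these genes is uncertain.

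Hmgcs1, the cytosolic HMG-CoA synthase and a classic SREBP2 target, was at 63.5, 29.6, 55.1 and 89.8 FPKM in METTL3-HKD livers and at 119.5, 118.8, 93.2 and 68.5 FPKM in METTL3-Flox livers. METTL3-HKD liver 4 lay above METTL3-Flox liver 4, so the groups overlapped. The log2 fold change was -0.82 (SE 0.320, 95% confidence interval -1.54 to -0.09), and it did not pass the threshold (limma, adjusted p = 0.114).

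Mvk, mevalonate kinase, showed the largest drop in estimate among the 29. Its levels were 6.06, 3.42, 7.62 and 11.4 FPKM in METTL3-HKD livers against 18.97, 20.3, 15.4 and 12.5 FPKM in METTL3-Flox livers, with no overlap. The METTL3-HKD mean was 42.4% of the METTL3-Flox mean, and the log2 fold change was -1.33 (SE 0.325, limma, adjusted p = 0.0285). The 3 enzymes that follow had estimates of similar sign that did not pass the threshold. They were -0.82 for Pmvk, phosphomevalonate kinase, -1.07 for Mvd, the decarboxylase that makes isopentenyl diphosphate, and -1.06 for Idi1, its isomerase (limma, adjusted p from 0.107 to 0.177). Idi1 ran from 5.80 to 34.3 FPKM within METTL3-HKD livers, beside 26.2 to 49.7 FPKM in METTL3-Flox livers. The transcript of Idi1 shares 684 bases without a mismatch with the processed pseudogene Gm13502, listed at 2.502 FPKM against 30.9 FPKM for Idi1.

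Fdps, Ggps1 and Fdft1 join isoprenoid units into longer chains. Fdft1, squalene synthase, commits the chain to sterols and was at 18.8, 9.45, 22.6 and 33.2 FPKM in METTL3-HKD livers and at 49.7, 51.1, 41.3 and 32.2 FPKM in METTL3-Flox livers. The ranges met at METTL3-HKD liver 4 and METTL3-Flox liver 4. The log2 fold change was -1.16 (SE 0.339, limma, adjusted p = 0.0488), just inside the threshold, and it was past the threshold in 3 of 16 alternatives. Of the exon bases of Fdft1, 18.3% lie opposite exons of Ctsb, a lysosomal protease at 110.6 FPKM with an estimate of 0.02 (limma, adjusted p = 0.949). Strand use in counting is not given in the sources used here, so reads of both genes could mix.

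Fdps, farnesyl diphosphate synthase, was listed at only 1.37 ± 0.938 FPKM (SD, n = 4) in METTL3-HKD livers and 2.95 ± 0.863 FPKM (SD, n = 4) in METTL3-Flox livers, with a log2 fold change of -1.28 (SE 0.482, limma, adjusted p = 0.102). Its processed pseudogene Gm3571, identical to the Fdps transcript at 98.87% of 1062 bases, was listed far higher. Gm3571 stood at 12.5, 3.98, 10.4 and 18.9 FPKM in METTL3-HKD livers and at 37.9, 29.4, 25.5 and 19.2 FPKM in METTL3-Flox livers, with a log2 fold change of -1.44 (SE 0.423, limma, adjusted p = 0.0499). A second copy, Gm5873, differed by -1.11 (SE 0.316, limma, adjusted p = 0.0454). Both copies were chosen for their sequence, and the table does not tell how much of their signal is Fdps mRNA. Of the exon bases of Fdps, 26.7% are also exon bases of Gm43738 on the same strand, listed at 0 FPKM. How reads on these shared bases were counted is uncertain.

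Ggps1 makes the geranylgeranyl diphosphate used to prenylate proteins, a branch away from sterols. It was at 2.49, 2.45, 1.57 and 1.69 FPKM in METTL3-HKD livers and at 1.997, 1.98, 1.95 and 2.12 FPKM in METTL3-Flox livers. The METTL3-HKD values lay on both sides of the METTL3-Flox values. Its log2 fold change was -0.00, with a 95% confidence interval from -0.38 to 0.37 (limma, adjusted p = 0.994).

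**Figure D2:**
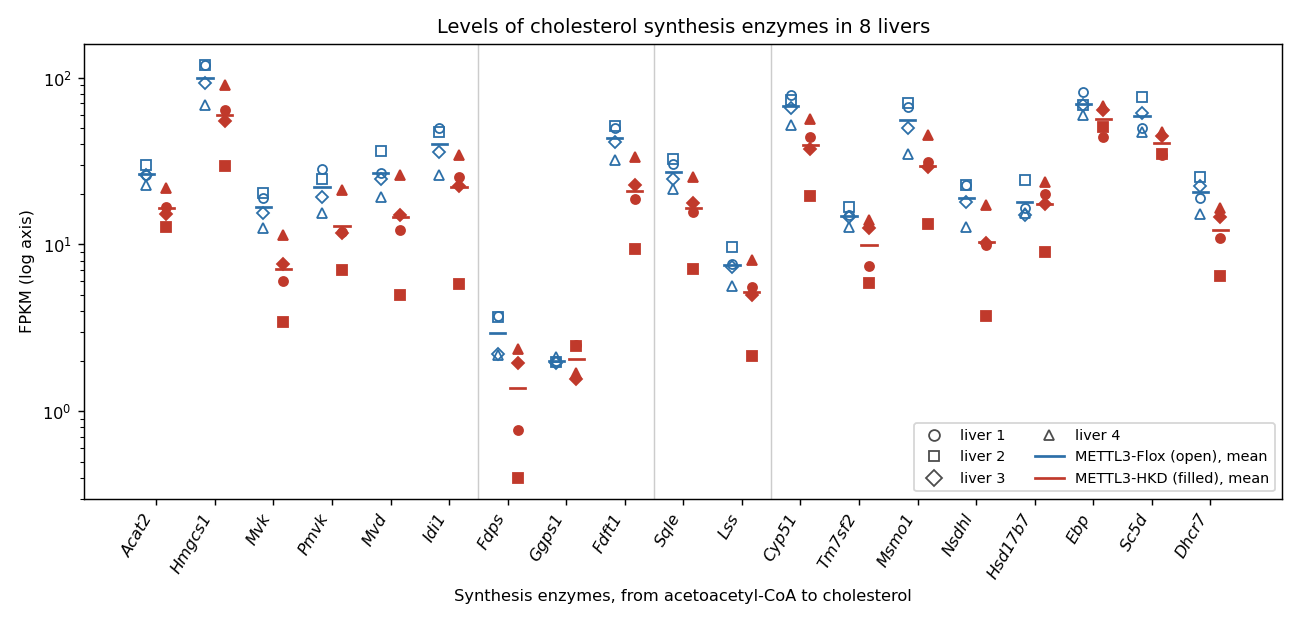
FPKM on a log axis for the 19 synthesis enzymes in pathway order, with open blue symbols for METTL3-Flox and filled red symbols for METTL3-HKD livers, 1 symbol shape per liver number, and horizontal lines at the group means. METTL3-HKD liver 2 is the lowest point in most columns and METTL3-HKD liver 4 sits among the METTL3-Flox points, while Ggps1 and Hsd17b7 show no gap between the means.

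Sqle and Lss take squalene to lanosterol, the first sterol of the pathway. Sqle, squalene epoxidase and a rate-limiting step, was at 15.6, 7.11, 17.6 and 25.4 FPKM in METTL3-HKD livers and at 30.2, 32.4, 24.8 and 21.5 FPKM in METTL3-Flox livers. METTL3-HKD liver 4 lay above METTL3-Flox livers 3 and 4. The log2 fold change was -0.84 (SE 0.339, 95% confidence interval -1.61 to -0.08, limma, adjusted p = 0.124). For Lss, lanosterol synthase, the estimate was -0.65 and the interval reached from -1.45 to 0.15 (limma, adjusted p = 0.241).

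None of the 8 enzymes that turn lanosterol into cholesterol passed the adjusted threshold with limma, beside 6.63% of all genes called lower. Voom on rebuilt reads called 0 of the 8 as well. At an unadjusted p under 0.05, 6 of the 8 were lower, against 15.1% of all genes. Cyp51, the lanosterol demethylase that opens this stretch, was at 43.9, 19.5, 37.1 and 56.4 FPKM in METTL3-HKD livers and at 78.5, 73.1, 65.8 and 51.8 FPKM in METTL3-Flox livers. Only METTL3-HKD liver 4 reached the METTL3-Flox range. Its log2 fold change was -0.86 (SE 0.295, limma, adjusted p = 0.0787).

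The estimates of the following enzymes were -0.65 for the sterol reductase Tm7sf2, -0.98 for the methyl sterol oxidase Msmo1 and -1.04 for the dehydrogenase Nsdhl. The isomerase Ebp was at -0.32. Sc5d, the desaturase, showed no overlap, with 34.3 to 47.31 FPKM in METTL3-HKD livers below 47.32 to 76.8 FPKM in METTL3-Flox livers, yet it missed the threshold at -0.53 (SE 0.176, limma, adjusted p = 0.0715). Dhcr7, a reductase of the final steps, was at 10.9, 6.45, 14.7 and 16.5 FPKM against 19.1, 25.4, 22.3 and 15.2 FPKM, a log2 fold change of -0.81 (SE 0.285, limma, adjusted p = 0.0837).

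Hsd17b7, the ketone reductase of the demethylation cycle, had the estimate nearest to 0 among the enzymes from lanosterol to cholesterol. It was at 20.0, 9.06, 17.5 and 23.7 FPKM in METTL3-HKD livers and at 16.5, 24.4, 15.1 and 15.5 FPKM in METTL3-Flox livers, so the highest METTL3-Flox liver and the lowest METTL3-HKD liver were both number 2. Its log2 fold change was -0.08 with a 95% confidence interval from -0.73 to 0.56 (limma, adjusted p = 0.875), and the estimate was 0.20 without METTL3-HKD liver 2. That interval also holds the estimates of Tm7sf2, Sc5d and Ebp.

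**Figure D3:**
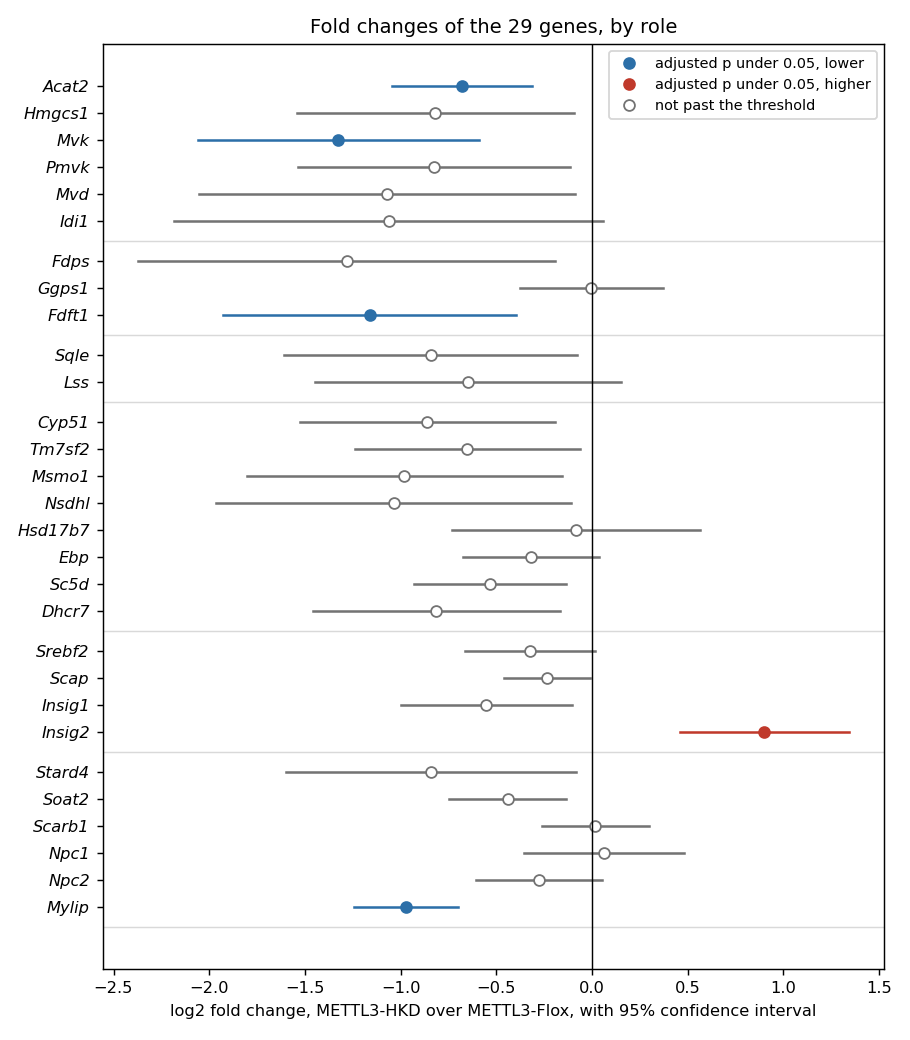
Log2 fold change of METTL3-HKD over METTL3-Flox on the x axis for each of the 29 genes, grouped by role from the mevalonate steps at the top to sterol movement and uptake at the bottom, with bars for 95% confidence intervals. Filled blue points are the 4 genes called lower, the filled red point is Insig2, and open grey points did not pass an adjusted p of 0.05.

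Among the 4 sensing genes, Insig2 rose and the others did not pass the threshold. Insig2 was at 102.5, 87.5, 87.9 and 66.3 FPKM in METTL3-HKD livers and at 60.8, 33.1, 48.3 and 44.1 FPKM in METTL3-Flox livers. Every METTL3-HKD liver was above every METTL3-Flox liver, which held for 1 of the 29 genes and for 12.7% of all genes. The METTL3-HKD mean was 185% of the METTL3-Flox mean, and the log2 fold change was 0.90 (SE 0.195, limma, adjusted p = 0.0188). Without METTL3-HKD liver 1 it missed the threshold (limma, adjusted p = 0.0525), with an estimate in the same direction.

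Insig1, the INSIG gene that SREBP itself switches on, had an estimate of opposite sign. It was at 64.0, 53.9, 61.6 and 102.7 FPKM in METTL3-HKD livers and at 92.9, 123, 96.5 and 91.4 FPKM in METTL3-Flox livers. All METTL3-HKD livers but liver 4 were below the METTL3-Flox range. The log2 fold change was -0.55 (SE 0.197, 95% confidence interval -0.998 to -0.105, limma, adjusted p = 0.0892).

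A ratio of Insig2 to Insig1 within each liver does not depend on how libraries were scaled, and it was computed after the values of both genes had been seen. It was 1.60, 1.62, 1.43 and 0.645 in METTL3-HKD livers and 0.654, 0.269, 0.4999 and 0.482 in METTL3-Flox livers. METTL3-HKD livers 1 to 3 had more Insig2 than Insig1, and METTL3-HKD liver 4 fell just under METTL3-Flox liver 1. The means were 1.32 ± 0.461 and 0.476 ± 0.158 (SD, n = 4 each), with p = 0.0571 in a two-sided exact permutation test, for which 0.0286 is the smallest p that 70 arrangements of 4 against 4 allow.

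Srebf2, which encodes SREBP2, was at 10.8, 7.54, 11.7 and 11.9 FPKM in METTL3-HKD livers and at 11.6, 13.5, 14.0 and 12.8 FPKM in METTL3-Flox livers. METTL3-HKD liver 2 was the lowest and the other livers lay close together. The estimate was -0.32 (SE 0.15, 95% confidence interval -0.66 to 0.02, limma, adjusted p = 0.174). For Scap, its escort, it was -0.23 (SE 0.1003, limma, adjusted p = 0.145). The table measures mRNA, so cleavage of SREBP2 was not observed.

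Mylip, also called IDOL, marks lipoprotein receptors for degradation and had the smallest adjusted p of the 29. It was at 2.15, 2.61, 2.95 and 2.88 FPKM in METTL3-HKD livers and at 4.94, 5.11, 5.23 and 5.76 FPKM in METTL3-Flox livers. The groups lay far apart and each was narrow. The METTL3-HKD mean was 50.3% of the METTL3-Flox mean, the log2 fold change was -0.97 (SE 0.120, limma, adjusted p = 0.0036), and Mylip was past the threshold in all 16 alternatives.

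Soat2 esterifies cholesterol for storage and for lipoproteins, and its METTL3-HKD livers, at 14.1 to 21.6 FPKM, were all below the METTL3-Flox livers, at 21.9 to 25.1 FPKM. The log2 fold change of -0.44 missed the threshold (SE 0.135, limma, adjusted p = 0.0572), and it passed when genes under a mean of 1 FPKM were left out (limma, adjusted p = 0.0480) or without METTL3-HKD liver 4. Stard4, which carries sterol through the cytosol, had an estimate of -0.84 (SE 0.335, limma, adjusted p = 0.121). Npc2, the soluble partner in lysosomal sterol export, was at -0.28 (SE 0.145, limma, adjusted p = 0.223).

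The level of Scarb1, the HDL receptor SR-BI, was 17.7 ± 2.30 FPKM in METTL3-HKD and 17.5 ± 2.22 FPKM in METTL3-Flox livers (SD, n = 4 each). Its log2 fold change was 0.02 with a 95% confidence interval from -0.26 to 0.30. Npc1, the membrane partner of Npc2, was at 10.9 ± 1.34 and 10.7 ± 2.64 FPKM (SD, n = 4 each), with an estimate of 0.06 and an interval from -0.36 to 0.48. Both intervals lie above the estimates of Mvk and Fdft1.

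The METTL3-HKD livers were unequal, with liver 2 lowest and liver 4 highest at most synthesis steps and livers 1 and 3 in between in either order. Over the 18 synthesis enzymes other than Ggps1, the median log2 difference from the METTL3-Flox mean was -0.78, -1.76, -0.77 and -0.14 in METTL3-HKD livers 1 to 4. METTL3-HKD liver 2 was the lowest of all 8 livers in 16 of the 18 enzymes. METTL3-HKD liver 4 was the highest of its group in 18 of 18 and lay within the METTL3-Flox range in 15 of 18. METTL3-Flox livers were ordered too, at 0.21, 0.29, -0.06 and -0.39, and METTL3-Flox liver 4 was the lowest of its group in 17 of 18. The highest METTL3-HKD liver exceeded the lowest 5.97-fold for Fdps, 5.91-fold for Idi1 and 5.24-fold for Mvd, while for Mylip this was 1.37-fold and for Insig2 1.55-fold. Points of one liver share a library, so the steps are not separate observations of its level.

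**Figure D4:**
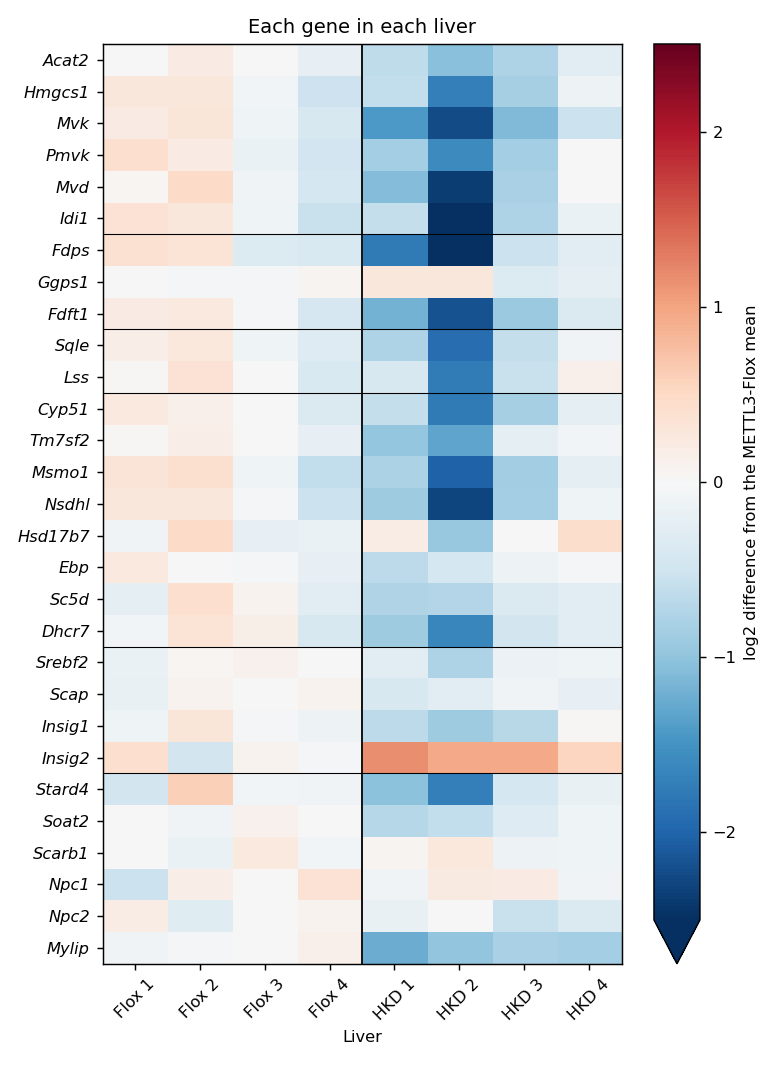
Heat map of the log2 difference of each gene in each liver from the METTL3-Flox mean, with livers on the x axis, genes on the y axis by role, blue for below and red for above. The column of METTL3-HKD liver 2 is the darkest blue over the synthesis enzymes, that of METTL3-HKD liver 4 is pale, and the Insig2 row is red across the METTL3-HKD livers.

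Depth on genes was 15961479 to 18434488 reads in METTL3-HKD and 15861245 to 17262991 reads in METTL3-Flox livers, and the least read synthesis enzyme, Fdps, rested on 31 to 249 reads. The hepatocyte identity of the tissue was plain, with Alb at 18252 FPKM in METTL3-HKD and 18426 FPKM in METTL3-Flox livers. Bulk RNA cannot tell fewer cells of a type from less RNA per cell. Hepatocyte markers were called in 0 of 8 cases by limma and by voom, with 1 lower at an unadjusted p under 0.05 and a median log2 fold change of -0.31, and their summed level was 24086 to 34228 FPKM in METTL3-HKD and 29034 to 34620 FPKM in METTL3-Flox livers. Their estimates were below 0 in 8 of 8 cases. Their median log2 difference was -0.56, -0.52, -0.11 and -0.03 in METTL3-HKD livers 1 to 4. The synthesis enzymes of the same livers were at -0.78, -1.76, -0.77 and -0.14. Neutrophil markers rose in 7 of 7 cases, with a summed level of 330 to 1614 FPKM against 12.8 to 44.2 FPKM. METTL3-HKD liver 1 was highest at 1614 FPKM, while liver 2, with the lowest synthesis enzymes, was at 379 FPKM and liver 4 at 544 FPKM. Of the other markers, 2 of 3 for monocytes, 3 of 4 for cholangiocytes and 1 of 3 tested for adrenal, pancreas and gut rose (Star, at 1.23 against 0.319 FPKM), and 4 of 5 for Kupffer cells, 2 of 4 for stellate cells and 1 of 4 for sinusoidal endothelium fell. Over all genes tested, 9.05% were called higher and 6.63% lower. Summed Kupffer markers were at 59.1 to 132 FPKM against 134 to 336 FPKM, and summed cholangiocyte markers at 113 to 361 FPKM against 47.8 to 75.1 FPKM. Spp1 made up most of the cholangiocyte sum, at 109 to 355 FPKM against 46.4 to 73.5 FPKM. For monocytes the sums were 22.5 to 87.2 against 1.82 to 4.99 FPKM, for stellate cells 31.3 to 38.9 against 33.2 to 64.7 FPKM, for endothelium 33.8 to 47.0 against 43.3 to 55.5 FPKM, and for adrenal, pancreas and gut 52.9 to 63.3 against 53.1 to 75.3 FPKM, with Prss2 and Npc1l1 listed at 0 in METTL3-Flox livers. Fabp2, at 48.7 to 59.0 against 50.1 to 71.2 FPKM, made up most of this last sum. Dcn, at 22.2 to 28.0 against 17.2 to 36.6 FPKM, made up most of the stellate sum. Such sums follow their most abundant gene and do not measure how common a cell type was. The part of these shifts in the differences of the cholesterol genes was not tested. Mettl3 was at 1.17 to 1.56 FPKM in METTL3-HKD and 1.16 to 1.84 FPKM in METTL3-Flox livers (log2 fold change -0.16, limma, adjusted p = 0.556), and as gene totals also hold reads outside exon 4, this value does not check the labels.

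Lists of 4 kinds of genes around the pathway were read beside these. Over all genes tested, 6.63% were called lower and 9.05% higher with limma. At an unadjusted p under 0.05, 15.1% of all genes were lower and 16.7% higher. Of 9 genes that cut SREBP or degrade pathway proteins when sterol is high, 1 fell and 0 rose with limma, and the same counts came from voom. The 1 was Rnf139, the ubiquitin ligase TRC8, at 5.74 ± 0.697 against 7.59 ± 0.676 FPKM (SD, n = 4 each) and a log2 fold change of -0.40 (SE 0.115, limma, adjusted p = 0.0456). Of 12 genes of the non-sterol branches, which use isoprenoids for ubiquinone, dolichol and prenylation, 0 rose and 0 fell with limma and with voom, while 3 were higher and 2 lower at an unadjusted p under 0.05, and the median was 0.15. Of 12 genes of the fatty acid arm, 0 rose and 0 fell with limma, 4 were lower and 0 higher at an unadjusted p under 0.05, and the median was -0.43. With voom 1 of them was called lower, Mid1ip1, whose limma estimate was -0.80 (SE 0.247, adjusted p = 0.0576) and which is named after its value was seen.

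Of 22 sterol efflux, ester and oxysterol genes, 5 were called higher, against 9.05% of all genes, and 3 lower, against 6.63%. Ch25h, a cholesterol hydroxylase that makes an oxysterol, was at 15.6, 8.78, 3.16 and 6.30 FPKM in METTL3-HKD livers and at 0.052, 0.046, 0.341 and 0.138 FPKM in METTL3-Flox livers. The groups did not overlap, and the lowest METTL3-Flox value was 1 read. Its log2 fold change was 5.06 (SE 0.503, limma, adjusted p = 0.0019) and depends on the pseudocount, falling to 2.88 with 1 FPKM. Bulk RNA does not tell which cells held the Ch25h reads, and this was not tested.

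Nceh1, a cholesterol ester hydrolase, was at 14.9 ± 1.19 against 7.93 ± 2.26 FPKM (SD, n = 4 each), a log2 fold change of 0.94 (SE 0.191, limma, adjusted p = 0.0153). Abcg8, the canalicular sterol exporter, rose by 1.01 (SE 0.230, limma, adjusted p = 0.0222). Its partner Abcg5 and the efflux pump Abca1 rose as well, by 0.89 and 0.56 (limma, adjusted p = 0.0462 and 0.0413).

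The 3 that fell were Cyp27a1, the mitochondrial sterol hydroxylase, at 99.8 ± 21.2 against 153.7 ± 23.0 FPKM (SD, n = 4 each) and -0.64 (SE 0.171, limma, adjusted p = 0.0380), Lcat, the plasma cholesterol esterifying enzyme, at -0.48, and Lrpap1, a chaperone of lipoprotein receptors, at -0.36 (limma, adjusted p = 0.0415 and 0.0426). Abcg5, Abca1, Lcat and Lrpap1 are named after their values were seen. The calls in this list were sensitive to the processing, and scaling to reads on genes left 8 higher and 0 lower over the 4 lists in place of 5 and 4.

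**Figure D5:**
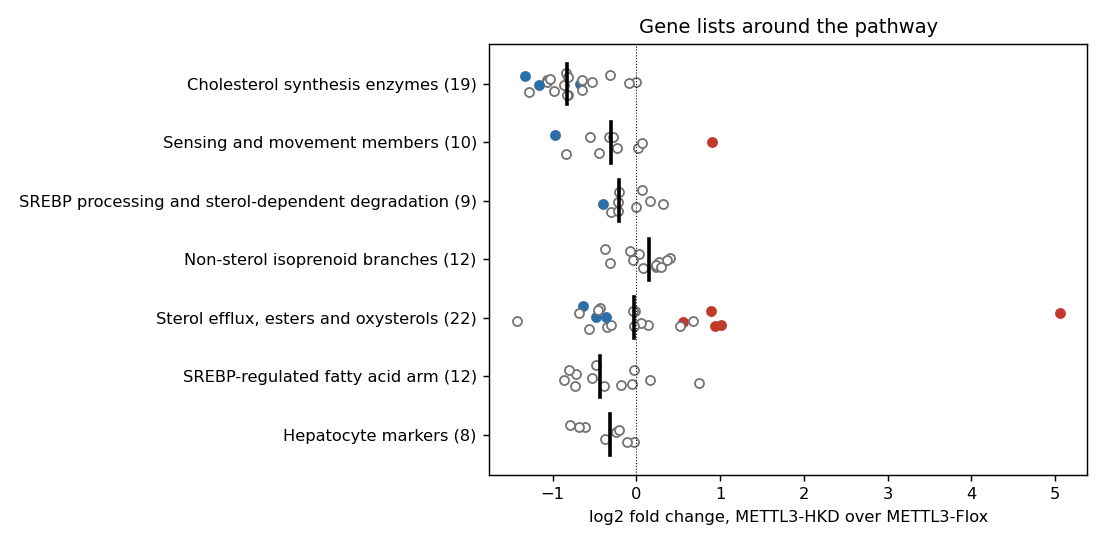
Log2 fold change of METTL3-HKD over METTL3-Flox on the x axis for the synthesis enzymes, the other 10 genes, the 4 surrounding lists and the hepatocyte markers, 1 point per gene, with filled blue for called lower, filled red for called higher and a black bar at each median. The bar of the synthesis enzymes lies at -0.82 and that of the hepatocyte markers at -0.31, and Ch25h is the point far to the right at 5.06.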

How the data were processed

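Livers of 4 METTL3-HKD and 4 METTL3-Flox mice after I/R were compared, grouped by the sample labels. The authors deposited FPKM for 54532 genes with gene lengths. The submitters' processing notes name GRCm38 and mm10. Aligner, counter, annotation and strand setting are not given in the sources used here. FPKM times length gave whole reads at an effective library size set from the values of each library. This size was 1.008 to 1.167 times the reads on genes in METTL3-HKD and 0.840 to 1.008 times in METTL3-Flox livers. By this measure, values had been scaled between libraries before deposition. Each label names its own mouse, so p-values rest on the spread between mice.

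The 16645 genes averaging 0.1 FPKM or more were log2-transformed (pseudocount 0.1 FPKM) and tested in R 4.3.3 by limma 3.58.1 (eBayes with trend). The adjustment was Benjamini-Hochberg over all of them. Permutation tests went through all 70 arrangements in Python 3.11.15, and confidence intervals used scipy 1.17.1. On simulated data for 16678 genes, 95 of 100 genes changed 3-fold and 41 of 100 changed 2-fold were called, with 5 unchanged genes called. The simulation gave every gene the same relative spread between livers, not fitted to these data, and changed far fewer genes than were called here. Its shares are therefore not the power for the genes described here. Exon overlaps used GENCODE M21, which gives 27 of the 29 genes the same coordinates. Alternatives were other pseudocounts and minimums, no trend, array weights, a replicate block, voom on rebuilt reads, other scaling, and each liver left out.

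The 29 genes and all lists were chosen with earlier results of these data known. By the naming rule, all 29 genes are named and up to 4 called genes per other list, with the smallest adjusted p. Some genes of the pathway are not reported here.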

Additional observations from a re-analysis of the deposited data

Results flagged for a closer look

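Among 58 sets of 4 livers (29 genes in 2 groups), 2 held a liver far from the other 3 by Dixon's ratio, where chance alone gives about 1 in 20. Both were METTL3-Flox liver 2 at the top of its group. Hsd17b7 was at 24.4 FPKM there (ratio 0.853), beside 15.1 to 16.5 FPKM in the other METTL3-Flox livers. Insig1 was at 123 FPKM there (ratio 0.839), beside 91.4 to 96.5 FPKM. Neither gene passed the adjusted threshold with limma, and without this liver the estimate of Hsd17b7 was 0.08.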

How the results depend on the processing

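Over 16 alternatives, 419 of 464 values of single genes kept their direction and side of the threshold, 25 of the 29 genes never reversed, and the median over the 29 genes stayed between -0.90 and -0.46. Mylip was past the threshold in 16 of 16 alternatives, Insig2 in 15, Mvk in 11, Acat2 in 10 and Fdft1 in 3. Of the other lists, Ch25h and Nceh1 were past it in 16, Abcg8 in 13, Rnf139 in 6 and Cyp27a1 in 5. The replicate block left 1 of the 29 genes lower, 2 genes of the other lists higher and 0 lower, and 971 genes higher and 645 lower overall; same-numbered livers did not deviate together (correlations from -0.0838 to 0.0711), so the numbers were not taken to pair them. Scaling to reads on genes left 2 of the 29 lower, 8 genes of the other lists higher and 0 lower, and 2309 genes higher and 374 lower overall. Without a minimum, the other lists had 3 higher and 0 lower and 682 genes were lower overall; without the trend, they had 3 higher and 0 lower. With single livers left out, the 29 genes had 0 to 1 higher and 1 to 9 lower, the other lists 2 to 5 higher and 0 to 7 lower, and all genes 747 to 1659 higher and 355 to 1148 lower. Estimates that reversed were all small. Ggps1 was at 0.0042 with a pseudocount of 1 FPKM, 0.20 with scaling to reads and -0.10 to 0.11 with single livers left out. Hsd17b7 was at 0.13 with scaling to reads and -0.25 to 0.20 with livers left out. Scarb1 and Npc1 were at -0.016 and -0.044 with array weights, and at -0.061 to 0.098 and -0.11 to 0.18 with livers left out. The causes were not tested. With 4 livers a group, differences of 2-fold were often missed in simulated data, so a gene not called may still differ.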
